A study of Mus musculus with 2 samples.

Results

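Enzymes of xenobiotic metabolism were followed by sc-RNASeq in ileal epithelial cells of WT and Tipe0-/- mice. The genes were chosen by their symbol and selected on their summed counts. A gene was taken when its symbol began with Cyp2, Cyp3, Cyp4, Gst, Ugt1, Ugt2, Sult, Aldh1 or Ces followed by a letter or digit and when it had at least 50 unique molecular identifiers (UMIs, each standing for 1 captured mRNA molecule) in both libraries together. Aldh1l2 was left out by the rule. Of 27998 genes, 178 had such a symbol and 62 of these reached 50 UMIs. Another 74 had no UMI in either library, and the remaining 42 had 216 UMIs in the WT and 227 UMIs in the Tipe0-/- library in all. Just below the threshold lay Ugt2a3 with 39 UMIs, Cyp2r1 with 44, Cyp2d22 with 46 and Ugt1a6a with 48, and just above it Ces1d with 51, Cyp2c55 with 60, Sult1a1 with 65 and Ces1c with 79. The rule reads only the start of a symbol, so it also took 5 genes of other families, namely Cyp20a1, Cyp27a1, Cyp39a1, Aldh16a1 and Aldh18a1, which are kept apart here. The remaining 57 genes comprised 8 of Cyp2, 2 of Cyp3, 6 of Cyp4, 4 of Aldh1, 8 of Ces, 19 of Gst, 1 of Ugt1, 4 of Ugt2 and 5 of Sult.

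The lining of the small intestine meets dietary and microbial chemicals before the liver does. In phase I of their metabolism, cytochrome P450 enzymes (Cyp), aldehyde dehydrogenases (Aldh) and carboxylesterases (Ces) oxidize or hydrolyse a compound. In phase II, glutathione S-transferases (Gst), UDP-glucuronosyltransferases (Ugt) and sulfotransferases (Sult) attach glutathione, glucuronic acid or sulfate to it, and efflux transporters then pump the conjugate out of the cell. Many of these enzymes also act on the body's own retinoids, steroids, fatty acids and eicosanoids, so the name of the group does not give the substrate that a given gene serves in the ileum.

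The study examined TIPE0, the product of Tnfaip8, in the intestinal epithelium. Its sc-RNASeq data are 1 library from WT mice and 1 library from Tipe0-/- mice, in which Tnfaip8 is deleted in the whole animal. Both groups were C57BL/6 mice aged 8 weeks without injury, and the ileal epithelial cells of 3 mice were pooled for each library, which was made on the Chromium System with 3′ chemistry. The labels call the digested material enteroids and the study's methods call it enterocytes, so whether the cells came straight from tissue is not settled by the sources used here. Whether the WT mice were littermates of the Tipe0-/- mice is not given in the sources used here, and genotype and library cannot be told apart. Each genotype has a single library, so nothing was tested between genotypes. Levels are counts per 1000000 UMIs of the same cells (CPM), a log2 ratio is Tipe0-/- over WT, and values in brackets are exact 95% intervals, which cover counting error only.

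The WT library held 3402 cells and 38127808 UMIs and the Tipe0-/- library 2006 cells and 23897126 UMIs, with medians of 7760 and 7307.5 UMIs per cell. Mitochondrial genes took 6.59% and 8.56% of the UMIs, and 9 cell barcodes occurred in both libraries. Tnfaip8 had 372 UMIs (9.76 CPM) in the WT and 57 UMIs (2.39 CPM) in the Tipe0-/- library. The label of the tissue as ileum matches Fabp6, the ileal bile acid-binding protein, which reached 26498 CPM in WT and 36036 CPM in Tipe0-/- enterocyte-like cells, but the label "enterocyte" covers several cell types. Clusters made without the 62 enzyme genes were named from markers as enterocyte-like (938 WT and 462 Tipe0-/- cells), goblet-like (739 and 509), cycling-like (639 and 445), stem-like (387 and 293), Paneth-like (282 and 139), tuft-like (157 and 51), lymphocyte-like (92 and 17) and enteroendocrine-like (29 and 17), and 1 cluster of 139 and 73 cells remained unnamed. The enterocyte-like share was thus 27.6% of WT and 23.0% of Tipe0-/- cells.

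The 62 genes together took 1881 CPM (1868 to 1895) in the WT and 2185 CPM (2167 to 2204) in the Tipe0-/- library, a log2 ratio of 0.22 (0.20 to 0.23). The median log2 ratio of all 11665 genes with at least 50 UMIs was 0.15, and ratios are read against this shift. The sum was dominated by a few genes. Gsto1 and Aldh1b1 alone gave 37.3% of the WT and 34.7% of the Tipe0-/- enzyme UMIs, and the 6 most abundant genes, which add Ces2e, Ugt2b34, Sult1d1 and Cyp4f14, gave 59.2% and 55.4%. The other 56 genes summed to 767 CPM in the WT and 974 CPM in the Tipe0-/- library, a log2 ratio of 0.34. Thus the abundant enzymes lay close to the shift of all genes, whereas most of the difference lay in enzymes of moderate or low abundance.

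A gene was called higher or lower in the Tipe0-/- library when its ratio was at least 1.5-fold above or below the shift of all genes in the same cells. Of the 62 enzymes, 25 were called higher and 0 lower, where 4.23% of all genes were called higher and 6.9% lower. Called or not, 46 of the 62 lay above the shift, and the median log2 ratio of the 62 was 0.55. Calls were more frequent among genes with few UMIs. They were 14 of the 18 enzymes under 200 UMIs (14.2% of all genes of that level were called higher), 9 of the 20 with at least 200 but under 1000 UMIs (4.25%) and 2 of the 24 with 1000 UMIs or more (1.09%). A gene near the threshold of 50 UMIs may have passed it through the library in which it was high, so the low-abundance counts describe the genes that passed and no more. The same holds for calls within a class below, where the 50 UMIs were those of the class. The shares of all genes beside those calls cover genes of every level. For each of the 25 called genes the whole counting interval lay above the shift.

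**Figure D1:**
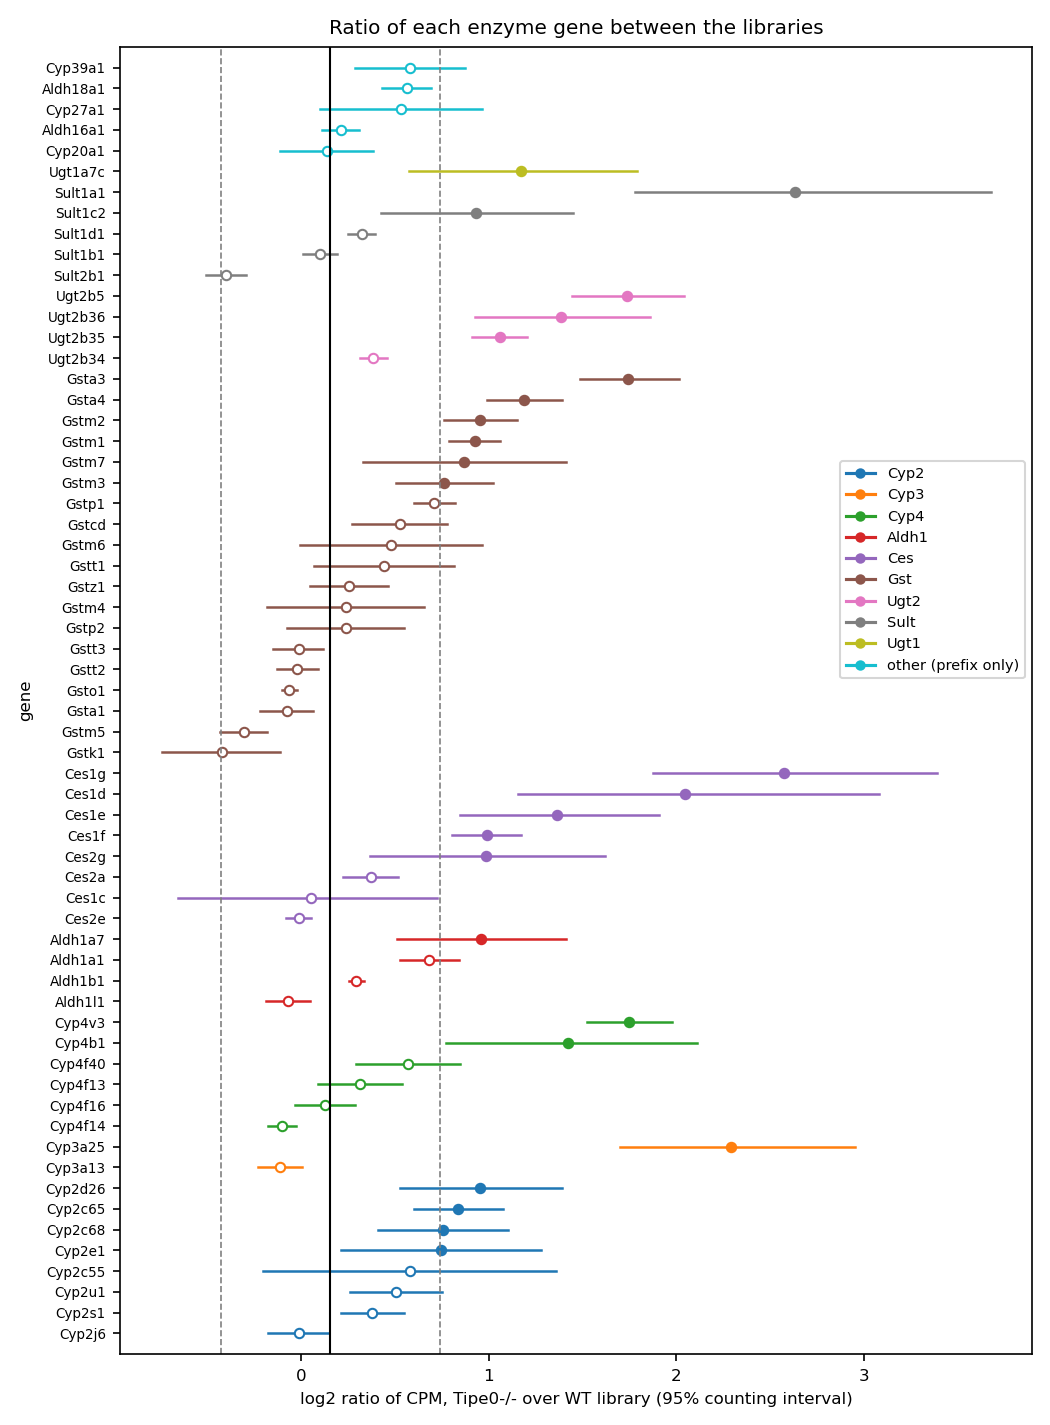
Log2 ratio of CPM, Tipe0-/- over WT library (x axis), for each of the 62 enzyme genes (y axis, coloured by family), with bars for the exact 95% counting interval, filled points for genes called higher, the solid line at the shift of 0.15 and the dashed lines 1.5-fold above and below it. The 25 filled points lie to the right, and none lies beyond the left dashed line. The farthest to the right, Sult1a1, Ces1g and Cyp3a25, had 13, 20 and 30 WT UMIs and may have passed the threshold of 50 UMIs through the Tipe0-/- library.

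Of the cytochrome P450 genes, 4 of 8 in Cyp2, 1 of 2 in Cyp3 and 2 of 6 in Cyp4 were called higher. Over all genes 4.23% were called higher, and 14.2% of those under 200 UMIs. These shares also stand beside the counts of the other families below. The Cyp2 sum was 62.3 CPM in the WT and 82.3 CPM in the Tipe0-/- library (log2 ratio 0.40). The Cyp3 sum was 43.2 and 43.1 CPM (log2 ratio 0.00) and the Cyp4 sum 147 and 163 CPM (log2 ratio 0.15). Only the Cyp2 sum therefore lay above the shift, and the Cyp4 interval (0.09 to 0.21) spanned it. This depended on the processing. Over 5 alternative settings the log2 ratio ranged from -0.06 to 0.33 for Cyp3 and from 0.09 to 0.41 for Cyp4. Each of these sums lay above the shift in 2 of the 5, and the Cyp2 sum in all 5. The Cyp4 and Cyp3 sums rest mostly on Cyp4f14, an omega-hydroxylase of leukotrienes and fat-soluble vitamins, and on Cyp3a13, the main intestinal Cyp3a gene of the mouse. Cyp4f14 stood at 103 CPM (100.2 to 107) in the WT and 96.2 CPM (92.3 to 100.2) in the Tipe0-/- library, and Cyp3a13 at 42.4 and 39.2 CPM.

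Cyp4v3 (ENSMUSG00000079057, chr8:45304944-45333216, GRCm38), a fatty acid omega-hydroxylase, had the largest log2 ratio among enzymes of at least 20 CPM in either library. It had 239 UMIs (6.27 CPM, 5.50 to 7.12) in the WT and 504 UMIs (21.1 CPM, 19.3 to 23.0) in the Tipe0-/- library, a log2 ratio of 1.75 (1.53 to 1.98). Its 10 richest cells held 12.1% of these UMIs in either library, so the difference was spread over many cells. The other P450 genes called higher were scarcer. Cyp3a25, a relative of Cyp3a13, had 30 WT and 93 Tipe0-/- UMIs (log2 ratio 2.29, 1.70 to 2.95), Cyp4b1 had 32 and 54 (1.42, 0.77 to 2.11), and Cyp2d26 had 84 and 102 (0.95, 0.52 to 1.39). Of the fatty acid-oxidizing Cyp2c genes of chromosome 19, Cyp2c65 had 7.45 and 13.3 CPM (log2 ratio 0.84, 0.60 to 1.07) and Cyp2c68 3.65 and 6.15 CPM (0.75, 0.41 to 1.10). Reads of Cyp2c68 are uncertain, since 23.8% of the 98-base windows (the length of a read) at the 3′ end of its most affected transcript also occur in Cyp2c40. Cyp2e1, the ethanol-oxidizing P450, just passed the call with 60 and 63 UMIs (0.74, 0.21 to 1.28).

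The P450 genes that were not called included the abundant ones. Cyp2j6, an arachidonic acid epoxygenase, had 21.6 CPM in the WT and 21.4 CPM in the Tipe0-/- library, and Cyp4f16 had 20.9 and 22.8 CPM. Cyp2s1, which acts on retinoids, stood at 17.2 and 22.4 CPM (log2 ratio 0.38). The 4 Cyp4f genes, neighbours on chromosome 17 between 32536558 and 32947402, summed to 140.2 CPM in the WT and 140.1 CPM in the Tipe0-/- library, and none of them was called.

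Of the aldehyde dehydrogenases, 1 of 4 was called higher, and the family summed to 387 CPM in the WT and 471 CPM in the Tipe0-/- library (log2 ratio 0.28). Aldh1b1 (ENSMUSG00000035561, chr4:45799022-45804604), a mitochondrial enzyme for acetaldehyde and retinaldehyde, made up most of it with 326 CPM (320.3 to 332) and 399 CPM (391 to 407), a log2 ratio of 0.29 that was not called. Aldh1a1, which makes retinoic acid from retinaldehyde, had 17.8 CPM in the WT and 28.5 CPM in the Tipe0-/- library (0.68, 0.53 to 0.84), just short of a call. Aldh1a7, its close relative on chromosome 19, was called with 78 and 95 UMIs (0.96, 0.51 to 1.41). Aldh1l1, an enzyme of folate metabolism, stood at 41.2 and 39.2 CPM. The family thus combined an abundant gene near the shift with the scarcer Aldh1a1 and Aldh1a7, which lay higher, and Aldh1l1, which did not.

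The Ces1 and Ces2 loci of the carboxylesterases differed in their summed ratios, but single genes, Ces2g and Ces1c, crossed this divide. The 3 Ces2 genes on chromosome 8 (104734003 to 104969537) summed to 155 CPM in the WT and 161 CPM in the Tipe0-/- library (log2 ratio 0.06), of which Ces2e (ENSMUSG00000031886), an abundant intestinal esterase of drugs and lipid esters, gave 131 CPM (128 to 135) and 129.9 CPM (125 to 135). The 5 Ces1 genes lie elsewhere on the same chromosome (93099015 to 93337308), and they summed to 15.1 and 32.5 CPM (log2 ratio 1.11). Of these 5, all but Ces1c were called higher. With each cell thinned to 3000 UMIs, which lets each cell count alike, Ces1f was no longer called (log2 ratio 0.63) and Ces1d and Ces1g fell under 50 UMIs, which left Ces1e, and Ces1d also fell under 50 UMIs without the cells of over 20% mitochondrial UMIs and without the 5% of cells with the highest doublet scores. Ces1f, the most abundant of them, rose from 11.6 CPM (10.6 to 12.8) to 23.1 CPM (21.2 to 25.1), a log2 ratio of 0.99 (0.81 to 1.17). Ces1g had 20 WT and 76 Tipe0-/- UMIs, Ces1e 50 and 81, and Ces1d 14 and 37. With so few WT UMIs, the share of the 10 richest cells does not tell how these genes were spread over cells. Ces1d and Ces1g also passed the threshold of 50 UMIs mostly through the Tipe0-/- library, in which they were high. In the Ces2 group Ces2g was called with 41 and 51 UMIs (0.99, 0.37 to 1.62), and Ces2a stood at 22.6 and 29.3 CPM (0.37). Ces1c, with 48 and 31 UMIs, had a log2 ratio of 0.05.

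The 5 genes that the rule took by the start of their symbol alone summed to 96.5 CPM in the WT and 122 CPM in the Tipe0-/- library (log2 ratio 0.34), and none was called. Aldh18a1, an enzyme of proline synthesis, had 26.6 and 39.3 CPM (0.56), Aldh16a1 53.2 and 61.5 CPM (0.21) and the orphan P450 Cyp20a1 8.76 and 9.62 CPM (0.14). Cyp27a1 and Cyp39a1, which hydroxylate sterols, had 96 and 87 UMIs and 205 and 192 UMIs.

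Glutathione S-transferases were the largest family by number and by level, with 651 CPM in the WT and 711 CPM in the Tipe0-/- library. This log2 ratio of 0.13 (0.10 to 0.15) was no higher than the shift, yet 6 of the 19 genes were called higher. Gsto1 (ENSMUSG00000025068, chr19:47854970-47864790) is an omega-class enzyme that reduces dehydroascorbate rather than conjugating drugs. It was the most abundant enzyme gene in the WT library and second to Aldh1b1 in the Tipe0-/- library. Its level was 376 CPM (369 to 382) in the WT and 359 CPM (352 to 367) in the Tipe0-/- library (log2 ratio -0.06). Gstt2, a theta-class enzyme, had 46.6 and 45.9 CPM. The 3 theta genes on chromosome 10 together summed to 82.0 and 82.1 CPM. Of the 3′ windows of Gstt3, 67.3% in its most shared transcript and 22.4% over all its transcripts also occur in a neighbouring gene model.

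In the alpha and mu classes, neighbouring genes had unlike ratios. Gsta3 (ENSMUSG00000025934, chr1:21240589-21265661), an alpha-class enzyme, rose from 176 UMIs (4.62 CPM, 3.96 to 5.35) to 370 UMIs (15.5 CPM, 13.9 to 17.1), a log2 ratio of 1.74 (1.48 to 2.01). Gsta4, the alpha-class enzyme for the lipid peroxidation product 4-hydroxynonenal, rose from 9.10 CPM (8.17 to 10.1) to 20.8 CPM (19.0 to 22.7), a log2 ratio of 1.19 (0.99 to 1.39). Gsta1, which lies beside Gsta4 on chromosome 9, stood at 28.6 CPM in the WT and 27.1 CPM in the Tipe0-/- library (-0.08, -0.22 to 0.06). The mu-class genes form a row of 7 on chromosome 3 (107895821 to 108044894), and 4 of them were called higher. Gstm1 (ENSMUSG00000058135) rose from 21.4 CPM (19.9 to 22.9) to 40.5 CPM (38.0 to 43.2), a log2 ratio of 0.92, and Gstm2 from 10.5 CPM (9.54 to 11.6) to 20.4 CPM (18.6 to 22.3), a log2 ratio of 0.95. Gstm3 (0.76) and Gstm7 (0.87) were called too. With each cell thinned to 3000 UMIs Gstm1 was no longer called (0.47), and Gstm7 had too few UMIs. At the end of the row, Gstm5 (ENSMUSG00000004032) stood at 40.7 CPM (38.7 to 42.8) in the WT and 32.9 CPM (30.6 to 35.3) in the Tipe0-/- library, a log2 ratio of -0.31 (-0.43 to -0.18) that was not called. Gstm4 and Gstm6 were not called either, with log2 ratios of 0.24 and 0.48. Between 7.92% and 9.24% of the 3′ windows of the most shared transcripts of Gstm1 and Gstm6 also occur in Gstm3.

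The antioxidant response element, bound by the stress regulator Nfe2l2 (NRF2), has the core TGACNNNGC, where N is any base. It was searched on both strands of the RefSeq promoters of GRCm38.p6, from 250 bases before to 50 bases after the start of transcription, in which 56 of the 62 enzymes had an entry. Ces1d, Ces1f, Cyp2u1, Cyp39a1, Gsta4 and Gstt2 had none. The core occurred in 4 of the 56 promoters (7.14%) and in 12.5% of all 27025 promoters. The 4 genes were Gsta3 and Cyp2c65, which were called higher, and Gstm5 and Cyp2j6, which were not. The core of the xenobiotic response element, GCGTG, searched on both strands as well, occurred in 13 of 56 enzyme promoters (23.2%) and in 32.5% of all, and in Gstm5 it lies on the minus strand within the first motif. A match is a description of the letters and not evidence of binding. Parts of 3 promoters are shown because Gsta3 and Gstm5 carry the core and differ in direction, and Cyp2c65 is the other called gene with it. Each runs from 150 bases before to 10 bases from the start of transcription on, all 3 on the plus strand, with the core in capitals; it lies on the plus strand in Gsta3 (chr1:21240435-21240594) and Gstm5 (chr3:107895704-107895863) and on the minus strand in Cyp2c65 (chr19:39060856-39061015).
Gsta3: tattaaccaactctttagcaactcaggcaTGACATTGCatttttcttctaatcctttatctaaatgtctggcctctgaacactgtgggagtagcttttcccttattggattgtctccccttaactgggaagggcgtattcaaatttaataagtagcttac
Gstm5: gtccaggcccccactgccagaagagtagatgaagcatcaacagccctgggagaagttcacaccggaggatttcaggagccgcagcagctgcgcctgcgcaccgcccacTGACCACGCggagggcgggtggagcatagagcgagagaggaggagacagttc
Cyp2c65: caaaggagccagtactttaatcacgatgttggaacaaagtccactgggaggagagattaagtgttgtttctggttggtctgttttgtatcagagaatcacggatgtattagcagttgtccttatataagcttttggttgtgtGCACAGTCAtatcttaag

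Among the other glutathione S-transferases, Gstp1, the pi-class enzyme, stood at 34.6 CPM (32.8 to 36.6) in the WT and 56.7 CPM (53.7 to 59.8) in the Tipe0-/- library. Its log2 ratio of 0.71 was just short of a call. Gstp1 and its neighbour Gstp2 share 89.8% of the 3′ windows of their most shared transcripts. Over all transcripts 65.9% of the Gstp1 and 47.6% of the Gstp2 windows are shared, so counts of the pair are uncertain. Gstk1, the mitochondrial and peroxisomal kappa-class enzyme, had the lowest log2 ratio of all 62 genes with 268 WT and 125 Tipe0-/- UMIs (-0.42, -0.74 to -0.11), also not called. Gstz1, an enzyme of tyrosine breakdown, stood at 11.7 and 13.9 CPM, and Gstcd, a protein with a transferase-like domain, at 7.16 and 10.3 CPM.

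UDP-glucuronosyltransferases of the Ugt2 family had the largest difference of any family with more than 1 gene. They summed to 111 CPM (108 to 115) in the WT and 169 CPM (163 to 174) in the Tipe0-/- library, a log2 ratio of 0.60 (0.54 to 0.66), and 3 of the 4 were called higher. All 4 lie in the cluster on chromosome 5 (86889767 to 87140318) and conjugate steroids, bile acids and phenols. The abundant gene, Ugt2b34, stood at 88.4 CPM (85.4 to 91.4) and 115 CPM (111 to 119.7), and its log2 ratio of 0.38 was not called. Ugt2b35 (ENSMUSG00000035811) rose from 17.6 CPM (16.3 to 19.0) to 36.7 CPM (34.3 to 39.2), a log2 ratio of 1.06 (0.91 to 1.21). Ugt2b5 rose from 3.65 CPM (3.06 to 4.30) to 12.2 CPM (10.8 to 13.7), a log2 ratio of 1.74 (1.44 to 2.04), and Ugt2b36 had 64 and 105 UMIs (1.38, 0.93 to 1.86). The single Ugt1 gene, Ugt1a7c, had 41 and 58 UMIs (1.17, 0.57 to 1.79). All 3′ windows (100%) of its most shared transcript, and 50% of those over all its transcripts, also occur in other Ugt1a genes. Whether these UMIs come from Ugt1a7c alone is therefore uncertain.

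Sulfotransferases gave 211 CPM in the WT and 227 CPM in the Tipe0-/- library (log2 ratio 0.11), with 2 of 5 genes called higher. The abundant genes were not called. Sult1d1, which acts on catecholamines, stood at 89.3 CPM (86.3 to 92.4) and 112 CPM (107 to 116), a log2 ratio of 0.32. Sult1b1, which acts on phenols and thyroid hormone, stood at 63.1 and 67.5 CPM (0.10). Sult2b1, the cholesterol sulfotransferase, had 57.0 CPM (54.6 to 59.4) in the WT and 43.1 CPM (40.5 to 45.9) in the Tipe0-/- library, a log2 ratio of -0.40 (-0.51 to -0.29), close to a call for lower. With the class makeup made equal in the libraries its log2 ratio was -0.13. The 2 called genes were scarce. Sult1a1, the phenol sulfotransferase, had 13 WT and 52 Tipe0-/- UMIs (2.63, 1.78 to 3.68), with 76.9% of the WT UMIs in 10 cells, and Sult1c2 had 61 and 73 UMIs (0.93, 0.42 to 1.45).

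Enterocyte-like cells were the main site of most families, as the map of families by class shows. They held 39.3% of the enzyme UMIs but 21.7% of all UMIs in the WT library, and 31.0% against 15.8% in the Tipe0-/- library. Of the 62 genes, 22 had their highest CPM in the enterocyte-like class in both libraries, where 12.8% of all genes did. They included Ces2e, Ces2a, Ces1f, Cyp3a13, Cyp3a25, Cyp4v3, all 4 Cyp4f genes, Aldh1a1, Aldh1l1, Ugt2b34, Gsta1 and 3 sulfotransferases. In the WT library the Ces sum was 539 CPM in enterocyte-like cells and 104 CPM in goblet-like, 18.5 CPM in stem-like and 12.7 CPM in Paneth-like cells, and the Sult sum was 659.7, 112, 27.7 and 27.3 CPM in the same order. The Cyp3 sum was 157 CPM in enterocyte-like, 7.502 CPM in cycling-like and 2.39 CPM in stem-like WT cells, and enterocyte-like cells held 79.1% of the WT and 78.1% of the Tipe0-/- UMIs of Cyp3a13.

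The Aldh1 and Gst families were spread differently. Their sums in WT cells were 422 and 730.3 CPM in the enterocyte-like, 477 and 786 CPM in the stem-like, 491 and 833 CPM in the cycling-like and 427 and 702 CPM in the goblet-like class. Aldh1b1 alone reached 457 CPM in stem-like and 453 CPM in cycling-like but 253 CPM in enterocyte-like WT cells, and by the mean of both libraries it was the leading enzyme of goblet-like, Paneth-like, tuft-like, enteroendocrine-like and stem-like cells. Gsto1 led in cycling-like and lymphocyte-like cells and in the unnamed cluster, and Ces2e led in enterocyte-like cells. Gstm1 and Gstm5, at 43.1 and 69.1 CPM in stem-like and 4.71 and 16.7 CPM in enterocyte-like WT cells, had the reverse order of the Ces and Cyp3 genes. Outside these classes, Gsta3, Gsta4, Gstp2, Ces2g and Cyp2u1 were highest in both libraries in the unnamed cluster, which was led by Lrg1, Akr1c19 and Gsdmc3. Ugt2b35 and Gstz1 were highest in enteroendocrine-like cells (29 WT and 17 Tipe0-/-), where no Ugt2 gene and only 1 Gst gene reached 50 UMIs. The highest class was taken without a minimum count within the class, and no Cyp2 gene reached 50 UMIs in the unnamed cluster. Paneth-like cells, which had the deepest counts (medians of 20982 and 26111 UMIs per cell), were low in all families at 469 CPM in the WT and 715 CPM in the Tipe0-/- library.

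**Figure D2:**
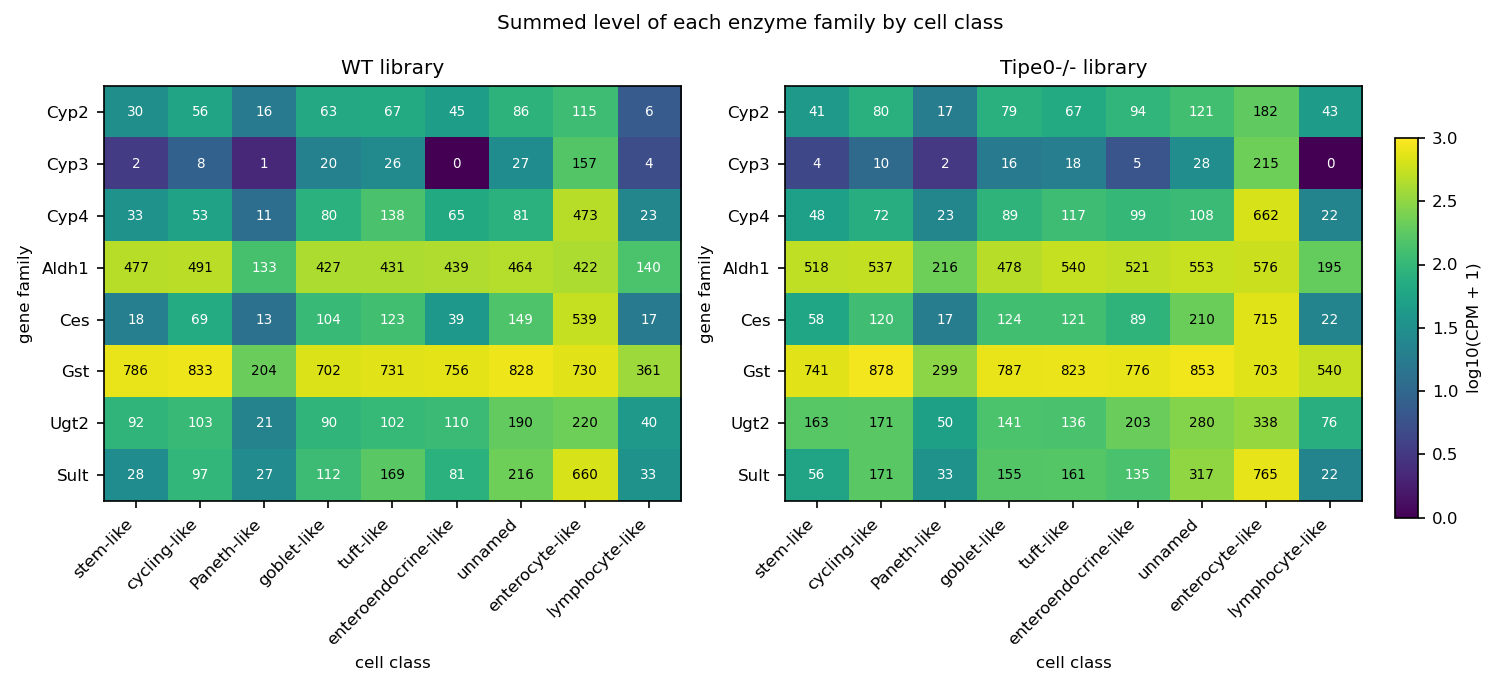
Summed CPM of 8 enzyme families (y axis) in 9 cell classes (x axis) of the WT library (left) and the Tipe0-/- library (right), coloured by log10(CPM + 1) with the CPM printed in each cell; Ugt1, with 1 gene, is not drawn. Cyp3, Cyp4, Ces and Sult peak in enterocyte-like cells, whereas Aldh1 and Gst are high in every class but the Paneth-like and lymphocyte-like.

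The difference between the libraries was then read within classes, since a bulk sum mixes the makeup of a library with the level in its cells. In the sums over whole libraries, fewer cells of a type and less RNA per cell cannot be told apart. Within enterocyte-like cells the 62 genes summed to 3407 CPM (3368 to 3447) in the WT and 4277 CPM (4211 to 4343) in the Tipe0-/- library, a log2 ratio of 0.33 (0.30 to 0.36) against a shift of 0.14. Of the 46 enzymes with at least 50 UMIs there, 18 were called higher and 1, Gstm5, lower, where 6.63% of genes were called higher and 6.1% lower in these cells. These shares cover genes of every level. Among the phase I families Cyp2 differed most, with 115 CPM (108 to 123) in the WT and 182 CPM (169 to 196) in the Tipe0-/- library, a log2 ratio of 0.66. Cyp4 had a log2 ratio of 0.48 (473 and 662 CPM), Cyp3 of 0.45 (157 and 215 CPM), Aldh1 of 0.45 (422 and 576 CPM) and Ces of 0.41 (539 and 715 CPM). The Ugt2 sum stood at 219.6 and 338 CPM (0.62) and the Sult sum at 659.7 and 765 CPM (0.21). The Gst sum was the exception, with 730.3 CPM (712 to 749) in the WT and 703 CPM (677 to 730.4) in the Tipe0-/- library, a log2 ratio of -0.05 (-0.12 to 0.01). Gsto1 made up most of this sum in both libraries. The 13 Gst genes with at least 50 UMIs in these cells had a median log2 ratio of 0.09. Among them Gsta4, Gstm1, Gstm2 and Gstm3 were called higher and Gstm5 lower.

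Cyp4v3 rose from 146 UMIs (17.6 CPM, 14.9 to 20.7) in WT to 372 UMIs (98.3 CPM, 88.6 to 109) in Tipe0-/- enterocyte-like cells, a log2 ratio of 2.48 (2.20 to 2.77), and Cyp3a25 from 26 to 82 UMIs (2.77, 2.13 to 3.48). Aldh1a1, not called over the whole libraries, rose here from 66.5 CPM (61.1 to 72.3) to 141 CPM (129.6 to 154), a log2 ratio of 1.09. Further genes called higher were Cyp4b1 (2.29), Ugt2b5 (1.96), Cyp2d26 (1.79), Ugt2b36 (1.56), Gsta4 (1.48), Cyp2c65 (1.45), Cyp2c68 (1.30), Aldh1a7 (1.204), Ugt2b35 (11.96 and 27.5 CPM), Gstm3 (1.08), Cyp2c55 (1.02), Gstm2 (0.95), Gstm1 and Ces1f (both 0.93) and Aldh18a1 (0.79). The most abundant enzymes again stayed short of a call. Ces2e stood at 449 CPM (435 to 464) in WT and 566 CPM (542 to 589.98) in Tipe0-/- enterocyte-like cells (0.33), Cyp4f14 at 374 and 452 CPM (0.27) and Sult2b1 at 189.9 and 179 CPM (-0.09). Cyp2j6 stood at 44.9 and 46.5 CPM, Gstt2 at 29.8 and 26.2 CPM and Gsto1 at 459 CPM (444 to 473) and 387 CPM (367 to 407), a log2 ratio of -0.25 (-0.33 to -0.16).

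With each cell thinned to 3000 UMIs, a UMI of Cyp4v3 was found in 55 of 938 WT enterocyte-like cells, or 5.86% (4.45 to 7.56, Clopper-Pearson), and in 110 of 462 Tipe0-/- cells, or 23.8% (19.996 to 28.0). Before thinning these shares were 11.9% and 38.7%, at medians of 6490 and 5667.5 UMIs per cell. Among lymphocyte-like cells it was found in 3 of 92 WT cells (3.26%) and in 0 of 17 Tipe0-/- cells, where the floor of 3 counts is a share of 17.6%. The medians of these cells were 4422 and 4315 UMIs before thinning. The WT share in enterocyte-like cells lay within the interval of the lymphocyte-like WT share (0.678 to 9.23).

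Markers of the cell types moved beside the enzymes in this class. Of 22 enterocyte markers 20 were measured, and their sum stood at 39802 CPM in WT and 52358 CPM in Tipe0-/- enterocyte-like cells, a log2 ratio of 0.40. Of the 20, 1 was called higher, Alpi, the intestinal alkaline phosphatase (37.4 and 85.1 CPM), and 0 lower. Over all genes 6.63% were called higher and 6.1% lower in these cells. Fabp6 made up most of the sum (26498 and 36036 CPM), and the median log2 ratio of the 20 was 0.27. Rbp2 (-0.39), Slc51b (-0.28), Apoa4 (-0.20), Krt20 (-0.18), Mep1b (-0.14) and Mttp (-0.12) had negative log2 ratios. Over whole libraries 1 of 21 measured markers was called higher and 7 lower, where 4.23% and 6.9% of genes were. Slc2a2 was at 0 UMIs in the WT cells and Fabp1 was below the count threshold. Goblet markers summed to 2008 and 1393 CPM in these cells, Paneth markers to 326 and 229.9 CPM, tuft markers to 19.9 and 6.34 CPM and lymphocyte markers to 73.6 and 44.4 CPM. Stem markers stood at 119 and 139.8 CPM, cycling markers at 106 and 118 CPM, and enteroendocrine markers at 135 CPM in both. The part of these differences in the enzyme ratios was not tested.

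The enterocyte-like class held 3 clusters, and single enzymes differed in level among them. Cluster 1 (434 WT and 227 Tipe0-/- cells) was led by Apoa4 and Apoa1 of mature villus enterocytes, cluster 9 (188 and 74) by Arg2 and Fabp6, and cluster 3 (316 and 161) by Slc40a1. No enterocyte marker was among the 10 leading genes of cluster 3, which included the enzymes Ugt2b5 and Gsta1 although neither had been used in the clustering. Cyp4v3 was high in cluster 1, with 34.0 CPM (28.3 to 40.6) in the WT and 191 CPM (171 to 213) in the Tipe0-/- library, and stood at 9.38 and 52.6 CPM in cluster 9. Cyp3a25 had 5.81 and 46.3 CPM, Cyp2d26 11.3 and 41.6 CPM and Aldh1a1 127 and 265 CPM in cluster 1. In cluster 3, by contrast, Ugt2b5 had 13.8 CPM (9.94 to 18.8) and 55.1 CPM (43.6 to 68.6), and Gsta4 18.2 CPM (13.7 to 23.8) and 59.2 CPM (47.3 to 73.3). Each of these genes thus had its highest Tipe0-/- level in the cluster named for it here, but the families did not divide in this way, since the log2 ratio of the Ugt2 sum was 0.60 in cluster 1, 0.53 in cluster 9 and 0.67 in cluster 3. Differences between clusters were not tested.

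The log2 ratio of the Gst sum differed in sign between these clusters. This sum was 656 CPM (629.9 to 683) in WT and 506 CPM (473 to 541) in Tipe0-/- cells of cluster 1, a log2 ratio of -0.37 (-0.49 to -0.26). In cluster 9 it was 762 and 685 CPM (-0.15), and in cluster 3 it was 803 CPM (771 to 836) and 943 CPM (893 to 995), a log2 ratio of 0.23 (0.14 to 0.33). Gsto1 made up most of this sum in clusters 1 and 3, and Gsta1 had ratios of the same sign there. The median log2 ratio of the measured Gst genes was -0.14 in cluster 1, -0.25 in cluster 9 and 0.08 in cluster 3. In cluster 1 Gsto1 had 458 CPM (437 to 481) in the WT and 305 CPM (279 to 333) in the Tipe0-/- library (-0.59), and Gsta1 had 59.2 CPM (51.6 to 67.7) and 33.8 CPM (25.6 to 43.9) (-0.80). In cluster 3, where the shift was 0.09, the same genes stood at 469 and 487 CPM (0.05) and at 81.4 and 113 CPM (0.47). Gsto1 thus lay below the shift of cluster 3, although the Gst sum lay above it. All other families of more than 1 gene except the Sult sum lay above the shift of 0.14 in cluster 1, from 0.40 for Ces to 1.07 for Cyp2, while Sult stood at 768 and 827 CPM (0.11). With no gene left out of the clustering, 1 enterocyte-like cluster held 371 WT and 10 Tipe0-/- cells and another 49 and 208, so with the enzymes and the genotype-listed genes both in use, clusters of this class differed in library makeup.

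**Figure D3:**
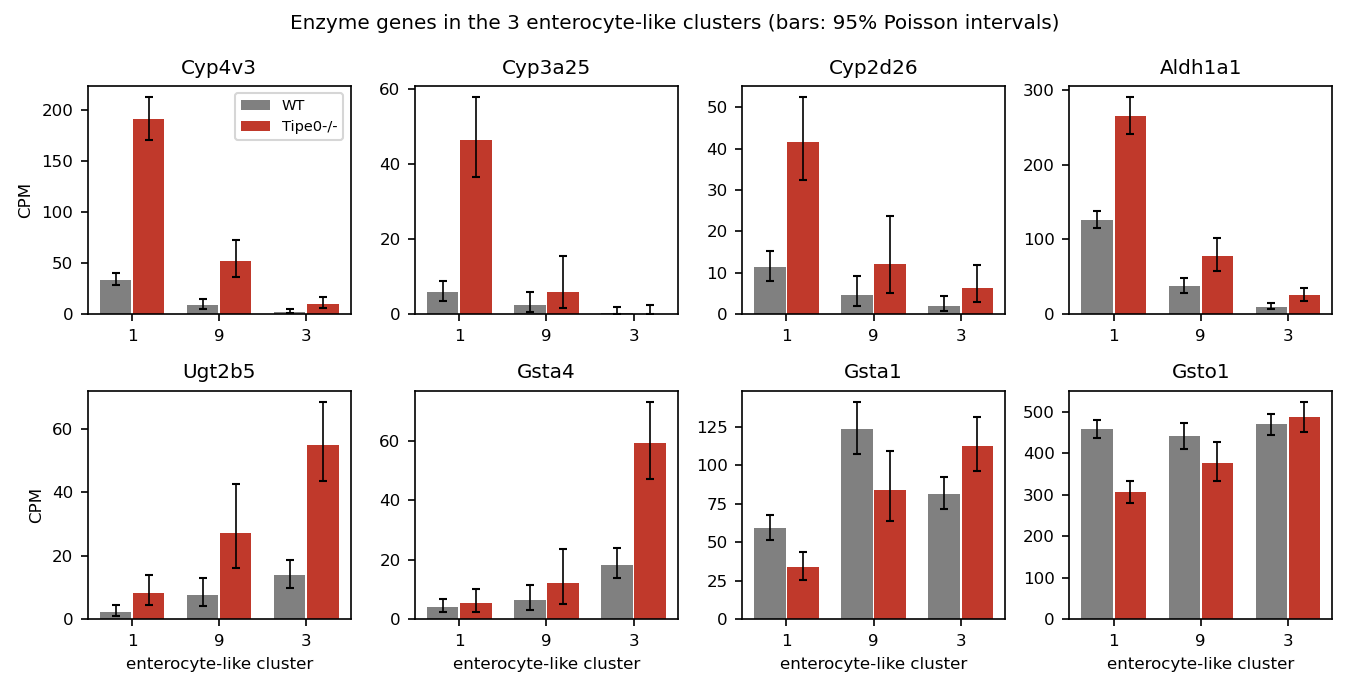
CPM (y axis) of 8 enzyme genes in the 3 enterocyte-like clusters (x axis) in the WT (grey) and the Tipe0-/- library (red), with exact 95% Poisson intervals of the counts as error bars. Cyp4v3, Cyp3a25, Cyp2d26 and Aldh1a1 are highest in Tipe0-/- cells of cluster 1, Ugt2b5 and Gsta4 in those of cluster 3, and Gsta1 and Gsto1 are lower than WT in cluster 1.

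In goblet-like cells 12 of the 46 measured enzymes were called higher and 0 lower, where 3.88% and 4.59% of genes were. For 11 of the 12 the whole counting interval lay above the shift. The 62 genes summed to 1712 CPM in the WT and 2000.4 CPM in the Tipe0-/- library (log2 ratio 0.22 against a shift of 0.10). Gsta3 rose from 6.07 CPM (4.61 to 7.84) to 18.5 CPM (15.6 to 21.8), Gsta4 from 11.8 to 27.1 CPM, Ces1f from 10.4 to 22.5 CPM and Sult1b1 from 22.6 CPM (19.7 to 25.8) to 36.8 CPM (32.6 to 41.4). Ugt2b5, Cyp4v3, Cyp2c68, Cyp2c65, Gstm3, Gstm2, Ugt2b35 and Sult1c2 were the other genes called, with log2 ratios from 0.71 to 1.49. Paneth markers in these cells stood at 1715 CPM in the WT and 1069.8 CPM in the Tipe0-/- library, and enterocyte markers at 4309 and 3640.1 CPM. Whether these bear on the enzymes was not tested. The class was made up of clusters 0, 7 and 12. Cluster 0 (424 WT and 324 Tipe0-/- cells) was led by Creb3l1, Mt3 and Spdef, with no goblet marker among its leading genes. There 13 of 40 measured enzymes were called higher and 1 lower (3.87% and 3.33% of genes). Cluster 7 had 1 of 9 higher and 2 lower (8.22% and 9.2%), and cluster 12 had 5 of 22 higher and 0 lower (7.08% and 7.2%). The median log2 ratios of the measured enzymes were 0.51, 0.07 and 0.08.

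In stem-like cells, led by Lgr5 and Olfm4, 9 of 25 measured enzymes were called higher and 1, Gstm5, lower, where 4.44% and 4.88% of genes were. Gsta3 rose from 16 UMIs (5.47 CPM, 3.13 to 8.89) to 60 UMIs (23.4 CPM, 17.9 to 30.2), a log2 ratio of 2.07 (1.28 to 2.99). Ces2a rose from 6.16 CPM (3.65 to 9.73) to 19.9 CPM (14.8 to 26.2) and Ces2e from 6.84 CPM (4.18 to 10.6) to 19.1 CPM (14.2 to 25.3). The Ces sum of this class was 18.5 CPM (13.9 to 24.1) in the WT and 57.8 CPM (48.9 to 67.9) in the Tipe0-/- library, a log2 ratio of 1.64, and the Sult sum was 27.7 and 55.9 CPM (1.01). Both lay below their enterocyte-like level in either library. Gstm5 fell from 69.1 CPM (59.9 to 79.3) to 43.4 CPM (35.7 to 52.2), a log2 ratio of -0.67 (-1.02 to -0.33), while its neighbour Gstm1 rose from 43.1 CPM (35.9 to 51.3) to 66.8 CPM (57.2 to 77.6). The other genes called higher were Ugt2b35, Cyp4f13, Sult1d1, Aldh18a1 and Gstp1. Stem markers summed to 1397 and 1399 CPM in these cells and enterocyte markers to 421 and 439.7 CPM.

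In cycling-like cells, which carry markers of DNA replication or mitosis, 14 of 40 measured enzymes were called higher and 2 lower, where 4.66% and 3.95% of genes were. For 13 of the 14 the whole counting interval lay above the shift. Ugt2b5 rose from 17 UMIs (2.50 CPM, 1.46 to 4.004) to 68 UMIs (15.4 CPM, 11.99 to 19.6), a log2 ratio of 2.60 (1.84 to 3.49). It may have passed the threshold of 50 UMIs in this class through the Tipe0-/- library. Ces1f rose from 5.30 to 19.5 CPM, Gsta3 from 7.502 to 21.6 CPM, Sult1b1 from 18.2 CPM (15.2 to 21.7) to 43.4 CPM (37.4 to 49.97) and Sult1d1 from 55.2 CPM (49.7 to 61.0) to 97.9 CPM (88.8 to 108). The genes called lower were Gstm5, which fell from 56.9 CPM (51.4 to 62.9) to 39.1 CPM (33.4 to 45.3), and Gstk1, which had 48 and 21 UMIs and an interval that spanned the shift (-0.55, -1.38 to 0.20). Enterocyte markers summed to 1689.9 CPM in WT and 2192 CPM in Tipe0-/- cycling-like cells, a log2 ratio of 0.38, and the part of this in the enzyme ratios was not tested.

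Some genes kept their direction across classes. Ugt2b35 was called higher in the enterocyte-like (11.96 and 27.5 CPM), goblet-like (16.9 and 30.6 CPM), stem-like (32.8 and 71.9 CPM) and cycling-like class (27.5 and 46.5 CPM). It was also called higher in Paneth-like (6.12 and 21.7 CPM) and tuft-like cells (17.2 and 35.0 CPM). Other enzymes divided more evenly there. In Paneth-like cells 4 of 19 measured enzymes were called higher and 2 lower (5.36% and 6.21% of genes), with a median log2 ratio of 0.45, below the shift of 0.48. In tuft-like cells 4 of 24 were called higher and 3 lower (6.65% and 8.74% of genes). In the unnamed cluster 3 of 16 were called higher and 1 lower (7.66% and 7.75% of genes). Gsta3 was called higher in the goblet-like, stem-like and cycling-like class and had too few UMIs in the enterocyte-like, Paneth-like and tuft-like class. Gstm5 was called lower in the enterocyte-like (16.7 and 11.9 CPM, an interval that reached 0), stem-like and cycling-like class and stood at 49.0 and 36.4 CPM in goblet-like cells (-0.43, not called). It had 25.7 CPM in both libraries in Paneth-like cells, where the shift was 0.48, and 51.6 and 49.3 CPM in tuft-like cells. Cyp3a13 stood at 154 and 193 CPM in enterocyte-like but at 19.98 and 15.4 CPM in goblet-like cells.

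**Figure D4:**
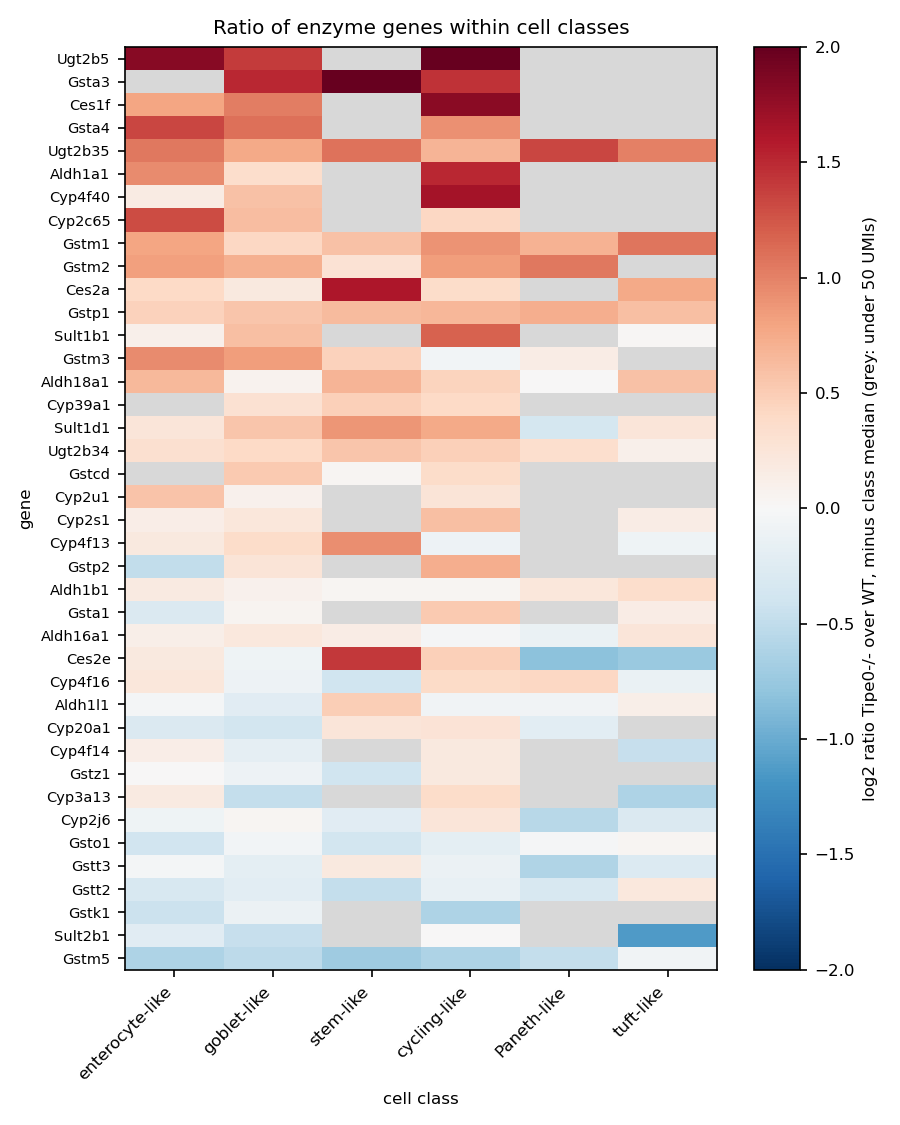
Log2 ratio of CPM, Tipe0-/- over WT library, minus the median over all genes of the class (colour), for the 40 enzyme genes with at least 50 UMIs in 3 or more of 6 cell classes (y axis) in each class (x axis), with grey where a gene has under 50 UMIs. Ugt2b35 is above its class median in all 6 classes and Gstm5, in the bottom line, below it in all 6.

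Other genes of the pathway were taken from a fixed list of 79, of which 68 had at least 50 UMIs. Of these, 5 were called higher and 3 lower, where 4.23% and 6.9% of all genes were, with a median log2 ratio of 0.17, so the rest of the pathway lay near the shift. The transporters Abcb1a, which encodes P-glycoprotein, and Abcc2 rose, from 27.7 CPM to 51.2 CPM (0.88, 0.76 to 1.004) and from 2.28 CPM to 5.11 CPM (1.16, 0.75 to 1.58). Abcg2, the most abundant efflux pump, stood at 86.9 and 115 CPM (0.40). Maob, Cbr3 and Ephx1 were the other genes called higher, and Xdh, the purine oxidase (41.5 and 28.8 CPM, -0.53), Adh6a (-0.80) and Aldh3b1 (-0.82) were called lower. Of the abundant phase I and phase II genes outside the families, Akr1a1, an aldehyde reductase, stood at 341 and 355 CPM, Akr1c13 at 39.0 and 58.7 CPM (0.59), and Mgst1, the microsomal glutathione transferase, at 356 CPM (350.0 to 362) and 551 CPM (542 to 560.5), a log2 ratio of 0.63 that was not called. Papss2, which makes the sulfate donor, stood at 36.5 and 28.7 CPM (-0.35).

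None of the 16 measured regulators was called. Nfe2l2 stood at 55.4 CPM (53.1 to 57.9) in the WT and 87.3 CPM (83.6 to 91.2) in the Tipe0-/- library, a log2 ratio of 0.66 (0.57 to 0.74), the highest among the regulators of at least 20 CPM. Hnf4a, a driver of enterocyte genes, stood at 188 and 195 CPM (0.05), Nr1h4, the bile acid receptor FXR, at 53.7 and 50.2 CPM (-0.10), and Nr1i2, the xenobiotic receptor PXR, at 20.2 and 22.4 CPM (0.15). Ahr, the aryl hydrocarbon receptor, had 7.40 and 8.997 CPM (0.28). Its classical target genes Cyp1a1 and Cyp1b1 had no UMI in either library, which allows up to 3 UMIs in each. Within enterocyte-like cells 8 of 62 measured pathway genes were called higher and 3 lower, where 6.63% and 6.1% of all genes were. Among those called higher were Abcb1a with 70.8 and 131 CPM (0.89) and Abcc2 with 7.97 and 19.8 CPM (1.31). Of the 4 efflux transporters measured in these cells, 2 were called higher and 1 lower.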

How the data were processed

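Cells of the ileal epithelium of 1 WT and 1 Tipe0-/- pool of 3 mice were run on the Chromium System with 3′ v2 chemistry. Reads were mapped to mm10 by the authors with Cell Ranger, which also collapsed UMIs, and the deposited values are raw counts per gene and retained cell, with no normalization. Genes that share 3′ sequence can lose or swap reads in such counts, and the unit of each value used here is that deposited count. Labels name collagenase and Dispase and the study's methods DNase I and Dispase for digestion of both libraries. Groups were taken from the genotype labels.

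UMIs were summed per library and class, divided by the total and given per 1000000. Ratios had 0.5 added to each sum, with exact binomial intervals at the 95% level. The floor of a count of 0 was 3 counts. Cells were clustered with Seurat 5.3.0 (R 4.3.3) after the study's methods on log-normalized values (14 principal components of genes chosen by dispersion, resolution 0.8), giving 15 clusters. Of 582 variable genes 522 were used, without the enzymes and without genes listed as different between the genotypes in the supplement. No cell was left out. Scrublet in Scanpy 1.11.5 (Python 3.11.15) called 15 WT and 3 Tipe0-/- cells as doublets, under 0.5% of cells, so its calls were not used and the 5% with the highest scores were left out as an alternative. Cells were thinned to 3000 UMIs for shares. Gene positions, promoters and shared 3′ ends are from RefSeq and the annotation of GRCm38. Scripts across genes were tested on simulated counts.

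The enzymes, marker and pathway lists and tests were chosen with earlier results of these data known. Genes were named by rule: the 3 most abundant of each family, the most abundant of each class, and among those of at least 20 CPM the 5 most raised and 5 most lowered by log2 ratio, over whole libraries and in enterocyte-like cells, and likewise for the pathway list by role. Others were named after their values were seen. Alternatives covered the scaling, class makeup, cell filters, thinning, thresholds, clustering and naming of cells.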

Additional observations from a re-analysis of the deposited data

Results flagged for a closer look

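Ces2e is singled out because its ratio pointed in opposite directions in different classes. In stem-like cells its log2 ratio was 1.46 (0.71 to 2.31, 20 WT and 49 Tipe0-/- UMIs), whereas it was -0.73 (-1.18 to -0.31, 195 and 59 UMIs) in tuft-like cells, a difference of 2.19. Against Paneth-like cells, with -0.33 (-1.16 to 0.42, 48 and 21 UMIs), the difference was 1.79. The shifts of these classes were 0.05 in stem-like, 0.01 in tuft-like and 0.48 in Paneth-like cells. Enterocyte markers summed to 6575 CPM in WT and 2622 CPM in Tipe0-/- tuft-like cells, a log2 ratio of -1.33 (-1.39 to -1.27). They stood at 325 and 283 CPM (-0.20) in Paneth-like and at 421 and 440 CPM (0.06) in stem-like cells. The part of these marker differences in the Ces2e ratios was not tested. Each class has 1 library per genotype, so these differences were not tested, and the stem-like and Paneth-like values rest on few UMIs.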

How the results depend on the processing

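The summed log2 ratio of the 62 enzymes over whole libraries (0.22) was 0.16 with totals that omit mitochondrial transcripts and the top 20 genes, 0.062 with the median ratio of all genes set to 0, 0.28 with the same makeup of classes in both libraries, 0.25 as the mean over cells of log-normalized values and 0.55 as the median of the 62 ratios. Of the 44 enzymes with at least 200 UMIs, 11 were called higher, and a call at 2-fold left 12 of 62, in place of 25. At the 1.5-fold call, 4.25% of all genes with at least 200 but under 1000 UMIs were called higher, and 1.09% of those with 1000 UMIs or more. For the 2-fold call and for the settings below, thinning included, no share of all genes is given. Those counts of calls therefore cannot be read against all genes. The same makeup of classes kept 24 of the 25 calls (without Gstm3) and added Aldh1a1 and Cyp2c55, and without cells of over 20% mitochondrial UMIs (141 WT and 205 Tipe0-/- cells) 22 of them remained, without Ces1d, Cyp2e1 and Gstm3 (the highest doublet scores left out, 24, without Ces1d). With each cell thinned to 3000 UMIs, an alternative for these counts chosen after seeing the data, 47 enzymes kept 50 UMIs, and 14 were called higher, 12 of them among the 25. Of the 13 lost, Ces1f (0.63) and Gstm1 (0.47) fell short of the call, and Ces1d, Ces1g, Ces2g, Cyp2e1, Cyp3a25, Cyp4b1, Gstm7, Sult1a1, Sult1c2, Ugt1a7c and Ugt2b36 fell under 50 UMIs. Thinning also gave 2 calls for lower, Gsta1 (-0.52) and Gstk1 (-0.60). No enzyme was called lower over whole libraries, but 1 was, Sult2b1 (-0.44), without the cells of over 20% mitochondrial UMIs and 1, Gstk1 (-0.47), without the highest doublet scores. The enterocyte-like sum (0.33) was 0.30 with each cell named by its own markers and 0.30 without cluster 1. The Gst sum in enterocyte-like cells (-0.05) ranged from -0.31 without cluster 3 to 0.13 without cluster 1, and was -0.27 with variable genes chosen by the vst method and -0.18 with thinned cells. Equal class makeup cannot be applied within 1 class. No sum over all enzymes turned its direction.

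With 1 library per genotype, differences between mice, library preparation and genotype cannot be told apart, and intervals cover counting error alone. Depth limits genes under 200 UMIs and the enteroendocrine-like and lymphocyte-like classes, in which only 2 enzymes reached 50 UMIs. No paired analysis was possible because each genotype has 1 library of pooled mice.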
